A study of Mus musculus with 20 samples.

Results

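The Hippo pathway kinases and effectors described here are 10 genes of 34083 that were quantified in N2A cells, a mouse neuroblastoma line. They are the kinases Lats1, Lats2, Stk3 and Stk4, the kinase scaffolds Sav1 and Mob1a, the transcriptional coactivators Yap1 and Wwtr1, and the DNA-binding factors Tead1 and Tead2. The genes were taken by name, and the pathway was chosen by the level of Lats1, which was lower at higher laser fluency in batch 1 of these same data. The values of Lats1 in batch 1 are therefore given as a description with no test. The other genes were tested with all genes of the series where they passed a filter on low counts, 8 in batch 1 and 7 in batch 2, with earlier results of these data known when the pathway was picked.

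Bulk RNA-seq was performed on 20 libraries, with cells of whole wells lysed 1 h after scanning with a near-infrared pulsed laser. Batch 1 held 3 libraries each of I0-E0 (average intensity 47.7 mW/µm2, fluency 9.54 J/cm2), I0-E2 (47.7 mW/µm2, 47.7 J/cm2), I0-E4 (47.7 mW/µm2, 95.4 J/cm2), I2-E2 (239 mW/µm2, 47.7 J/cm2) and unexposed negative control cells (NC). Batch 2 held 3 libraries of I3-E3-SRS, a near-burning setting with a pair of lasers (397 mW/µm2, 79.4 J/cm2), and 2 libraries of NC. Fluency is the energy delivered per area, and it was raised from I0-E0 to I0-E4 by a longer dwelling time on each pixel. Libraries of a group are numbered in the labels, which do not say whether they came from separate cultures. The p-values below therefore reflect only how these libraries vary, which may be technical.

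The Hippo pathway is a kinase cascade that restrains growth. The kinases MST2 and MST1, encoded by Stk3 and Stk4, bind the scaffold SAV1 and phosphorylate LATS1, LATS2 and their cofactor MOB1A. Active LATS kinases phosphorylate YAP, encoded by Yap1, and TAZ, encoded by Wwtr1, which are then held in the cytoplasm or degraded. Unphosphorylated YAP and TAZ enter the nucleus and activate target genes through TEAD factors. Most of this control acts on proteins, and the libraries measured transcripts.

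The total of estimated counts per library lay between 5473588 and 12698770. Library I0-E0 replicate 3 held reads of 19940 genes, against 15523 to 17173 in the others. Library NC replicate 1 of batch 2 held 32.5% of its TPM (a transcript level scaled by length and library) in transcripts under 300 bases, against 1.53% to 2.22% in the others, which lowers the TPM of all longer genes in it. Normalised counts (CPM, scaled by TMM library size and not by length) do not share that scale and are used for comparisons between groups. Markers of the labelled cell type were present, with 13 of 15 sympathoadrenal genes at 1 TPM or more in NC of batch 1, Tubb3, Hand2 and Stmn2 highest at 653, 307 and 283 TPM. Of 5 epithelial markers 0 reached 1 TPM, and of 7 fibroblast, 6 macrophage and 4 endothelial markers 1 each did, Pdgfra, Cd68 and Pecam1 at 1.69, 1.82 and 4.76 TPM. Of 9 mesenchymal markers 3 did, Vim at 1800 TPM, Fn1 at 86.7 TPM and Sox9 at 10.7 TPM.

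In build GRCm38 (GENCODE vM21 annotation) the genes are spread over 9 chromosomes. Of the kinases, Lats1 spans chr10:7681214-7716460 on the plus strand, Lats2 chr14:57689662-57758388 on the minus strand, Stk3 chr15:34875496-35178921 on the minus strand and Stk4 chr2:164070322-164155524 on the plus strand. The scaffold genes are Sav1 at chr12:69965012-69987002 (minus strand) and Mob1a at chr6:83326016-83343776 (plus strand). The effectors are Yap1 at chr9:7931999-8004596 and Wwtr1 at chr3:57455649-57575910, both on the minus strand, and Tead1 at chr7:112679318-112906807 and Tead2 at chr7:45215753-45233644, both on the plus strand. Values are summed over all annotated transcripts of a gene, untranslated regions included.

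In unexposed N2A cells the kinase cassette was well expressed, while the coactivator and paralogue transcripts were low. Mob1a had the highest TPM in NC of batch 1, 44.5 ± 5.13 TPM (SD, n = 3), followed by Tead1 at 37.7 ± 0.74 TPM, Stk4 at 31.8 ± 0.889 TPM, Lats1 at 29.1 ± 1.60 TPM and Stk3 at 26.3 ± 1.88 TPM. Sav1 was at 12.6 ± 1.27 TPM and Wwtr1 at 5.98 ± 0.441 TPM (SD, n = 3 each). Lats2 and Yap1 were at 0.569 ± 0.0885 and 0.373 ± 0.375 TPM (SD, n = 3 each). Over the 5 NC libraries of both batches, Stk3 and Sav1 were the only neighbours in this order whose ranges did not overlap. Without NC replicate 1 of batch 2, 4 neighbouring pairs were apart (Mob1a above Tead1, Lats1 above Stk3, Stk3 above Sav1 and Sav1 above Wwtr1).

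**Figure D1:**
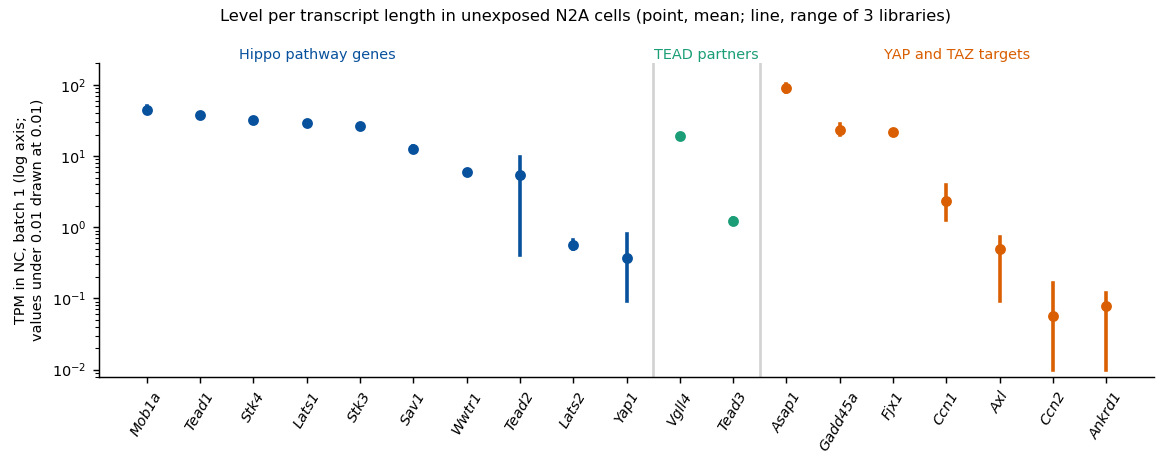
Level of the 10 Hippo pathway genes (left), 2 TEAD partners or paralogues (middle) and 7 YAP and TAZ target genes (right) in the 3 NC libraries of batch 1, in TPM on a log axis; points are means and lines are ranges. Mob1a, Tead1, Stk4, Lats1 and Stk3 lie between 26.3 and 44.5 TPM, whereas Yap1, Lats2, Ccn2 and Ankrd1 lie below 1 TPM.

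Reads of Yap1 were assigned almost entirely to a transcript that is not coding. Over all 20 libraries Salmon assigned 166 reads to Yap1, and 1 of them to any of its 3 protein-coding transcripts. Nearly all others were assigned to Yap1-208, a transcript annotated as retained intron that was 100% of Yap1 TPM in each NC library. Yap1-208 shares exons 1 and 2 with the coding transcript Yap1-201 and then runs on into intron 2 for 4549 bases (chr9:7996908-8001456 on the minus strand, build GRCm38). The 30 bases around the end of exon 2 are shown because they mark where the 2 transcripts part. Lower case is the shared end of exon 2, and capitals are what follows it, exon 3 in Yap1-201 and intron 2 in Yap1-208.
Yap1-201: aagatacttcttaaaTCACAACGATCAGAC
Yap1-208: aagatacttcttaaaGTAAGTGAAGACAGC

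The part of Yap1-208 that no read of spliced Yap1-201 can give holds 4549 of its 5252 words of 31 bases. Reads of Yap1 per library numbered 5, 12 and 12 in I0-E0, 15, 9 and 7 in I0-E2, 3, 10 and 9 in I0-E4, 4, 7 and 8 in I2-E2, and 3, 6 and 17 in NC of batch 1. They numbered 12, 5 and 8 in I3-E3-SRS and 4 and 9 in NC of batch 2. All of these groups overlapped. A count of 0 reads allows up to 3, which is 0.238 CPM in the deepest library and 0.552 CPM in the shallowest, so low Yap1 mRNA was not detectable at this depth. The value of Yap1 in the tests is therefore that of the retained-intron transcript.

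Tead2, a TEAD factor, also had no usable level. Its 5.38 ± 4.72 TPM (SD, n = 3) in NC of batch 1 came mostly from Tead2-210, a noncoding transcript of 272 bases on which 8 reads give a high TPM. Tead2 had 0 to 11 reads in any library, 79 in all, of which 39.3% were assigned to coding transcripts, and it was removed by the filter on low counts in both batches. Yap1 was removed in batch 2. The filter thus left 9 of the 10 genes in batch 1 and 8 in batch 2. In bulk RNA, fewer cells that express a gene and less RNA per cell cannot be told apart.

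Lats1, the kinase that phosphorylates YAP and TAZ, was lower in the libraries of batch 1 that received more energy. It measured 118, 119 and 117 CPM in NC. In I0-E0 it measured 114, 114 and 117 CPM. In I0-E2 it measured 114, 99.0 and 102 CPM. In I0-E4 it measured 94.8, 88.8 and 103 CPM. All 3 libraries of I0-E2 and of I0-E4 lay below all 3 of NC, while in I0-E0 replicate 3 overlapped NC. The groups of I0-E4 and I0-E2 overlapped each other, since I0-E4 replicate 3 lay above I0-E2 replicates 2 and 3. The log2 fold change against NC was -0.03 in I0-E0, -0.17 in I0-E2 and -0.30 in I0-E4 (SE 0.07 each), and the slope over NC and these groups was -0.30 for the whole range of fluency. These contrasts chose the gene and share the NC libraries. In I0-E4, 6.03% of all 12296 genes tested had all exposed libraries below NC, and 5.45% did in I0-E2.

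At the higher intensity of I2-E2, Lats1 measured 103, 97.2 and 108 CPM, again below all NC libraries of batch 1, with a log2 fold change of -0.20 (SE 0.07). I2-E2 and I0-E2 received the same fluency at intensities that differ 5-fold, with dwelling times of 2 and 10 µs per pixel. Intensity and dwelling time thus cannot be told apart in this contrast. Between them Lats1 overlapped, with a log2 fold change of -0.03 (SE 0.07).

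**Figure D2:**
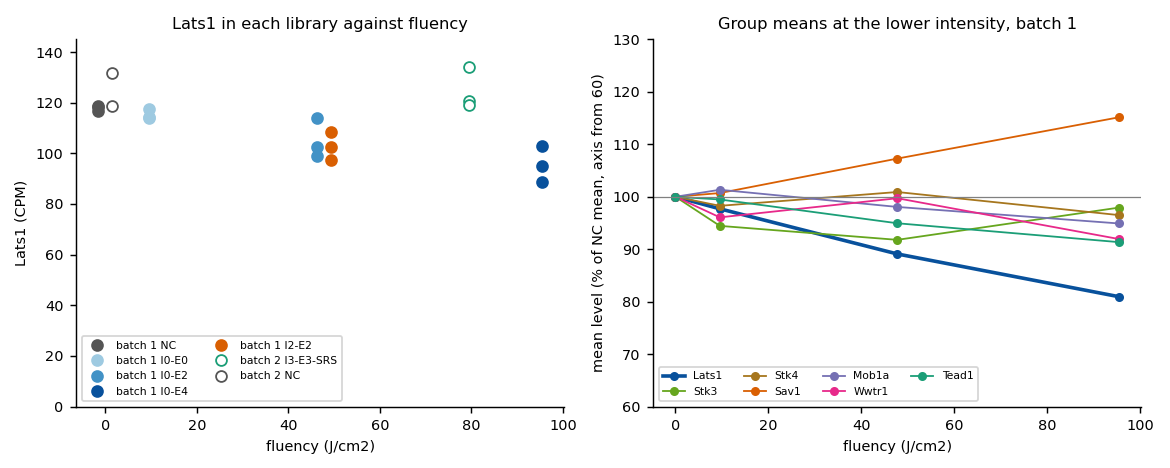
Left, Lats1 in CPM in each of the 20 libraries against fluency in J/cm2, with batch 2 as open circles and groups of equal fluency drawn side by side; right, mean level of 7 genes as a percent of the NC mean in the lower-intensity groups of batch 1 (the axis starts at 60). Lats1 is at 88.8 to 103 CPM in I0-E4 and at 117 to 119 CPM in NC of batch 1, whereas in batch 2 both groups lie between 119 and 134 CPM.

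The near-burning setting of batch 2 was not used to choose Lats1 and gives it a test. Lats1 measured 121, 134 and 119 CPM in I3-E3-SRS and 119 and 132 CPM in NC of batch 2. The groups overlapped, with I3-E3-SRS replicate 2 above both NC libraries, and the log2 fold change was -0.01 (95% confidence interval -0.19 to 0.17, adjusted p = 1.00 by the quasi-likelihood test of edgeR). The lasers, objective, intensity, dwelling time (2 µs per pixel, against 20 µs), fluency and batch differ from those of I0-E4. The difference between the settings was not tested. Without NC replicate 1 the log2 fold change was -0.08, and without NC replicate 2 it was 0.07.

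Lats1 is a long gene, and long genes were lower than short ones in several libraries of batch 1. Lats1 has a mean effective length of 6177 bases, longer than 95.8% of tested genes. Among the 3074 longest genes, above 3336 bases, the median log2 fold change of I0-E4 was -0.08 and 73.6% lay below NC, whereas among the 3074 shortest, under 1310 bases, the median was 0.09 and 28.1% did. The change of level with each doubling of length, on the log2 scale against the NC mean, was -0.085, -0.077 and 0.010 in I0-E4 replicates 1 to 3, which had 94.8, 88.8 and 103 CPM of Lats1. It was 0.014, -0.0024 and -0.012 in NC. In I2-E2 replicate 2 it was -0.083, with 97.2 CPM of Lats1. This library and I0-E4 replicates 1 and 2 had the lowest slopes of batch 1 and also the lowest Lats1. Among the other libraries of batch 1 the order by slope was not that by Lats1. I2-E2 replicate 3 had a slope of 0.023 and 108 CPM of Lats1, below all NC libraries, while I0-E0 replicate 1 and I0-E2 replicate 1 had slopes of -0.054 and -0.0032 and 114 CPM each. With the length trend of each library removed, the log2 fold change of Lats1 was -0.22 in I0-E4, -0.12 in I0-E2 and -0.15 in I2-E2. The part of length in the values of Lats1 was not tested beyond this. I0-E4 replicates 1 and 2 and I2-E2 replicate 2 held 6692637, 5623685 and 5808532 counts, among the lowest totals of batch 1. NC replicate 3 held 6460014 counts, with 117 CPM of Lats1. The part of depth in the values of Lats1 was not tested.

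The 2 shorter Lats1 transcripts differed in their shares in a few exposed libraries. All 3 annotated Lats1 transcripts are coding. Lats1-202, of 7209 bases, held 61.1% to 83.3% of Lats1 TPM over the 20 libraries. The rest was shared by Lats1-201 (4155 bases) and Lats1-203 (4186 bases), which differ by a retained stretch of 31 bases at chr10:7713281-7713311. Lats1-203 held 8.88%, 24.3% and 0.0058% of Lats1 TPM in I0-E2 replicates 1 to 3 and 21.6% in I0-E4 replicate 3, against 0.523%, 0.0044% and 0.076% in NC. In the libraries at 24.3% and 21.6%, Lats1-201 was at 3.32% and 3.88%, against 21.9% to 36.1% in NC. The sum of both shorter transcripts stayed within 16.7% to 36.6% in every library of batch 1. The other 2 libraries of I0-E4 had at most 0.038% of Lats1-203, so the libraries of a group did not share it, and the assignment rests on reads over a few bases.

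**Figure D3:**
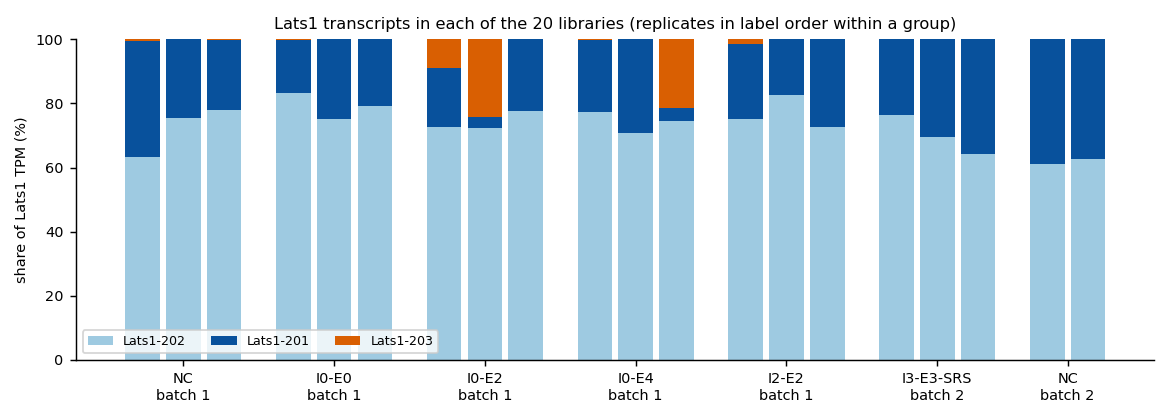
Share of Lats1 TPM in percent held by Lats1-202, Lats1-201 and Lats1-203 in each of the 20 libraries, by group. Lats1-203 is visible in 2 libraries of I0-E2 and 1 of I0-E4, where Lats1-201 is low, while the share of Lats1-202 keeps to 61.1% to 83.3%.

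None of the other members passed an adjusted p of 0.05 in any comparison. Of the 8 other genes tested in batch 1, 0 passed against NC in any of the 4 settings, and 0.0% of all 12296 genes did. At an unadjusted p under 0.05 there were 0 of 8 in I0-E0, I0-E2 and I0-E4, where 3.36%, 3.36% and 7.91% of all genes were, and 1 of 8 in I2-E2, where 7.19% were. DESeq2 and both limma fits also called 0 of these genes. Of the 8, 5 had a log2 fold change below 0 in I0-E0, where 48.6% of all genes did, 4 in I0-E2 (49.8%), 7 in I0-E4 (49.3%) and 7 in I2-E2 (48.8%), and the 4 comparisons share the NC libraries. In the trend over fluency 7 of 8 were below 0, where 50.7% of all genes were, and 6 of 8 were between I2-E2 and I0-E2 (47.6%). Stk4, Mob1a, Yap1, Wwtr1 and Tead1 have mean effective lengths of 3990 to 7974 bases, and Lats2, Stk3 and Sav1 of 2291 to 2590. Of tested genes above 3336 bases, 58.9% were below 0 in I0-E0, 69.2% in I0-E2, 73.6% in I0-E4 and 65.7% in I2-E2. Between I2-E2 and I0-E2 50.4% of them were. In the trend 75.7% of genes above 3333 bases were. The part of length in these counts was not tested. In I3-E3-SRS 0 of 8 passed, Lats1 included, with 0.0% of 12031 genes past an adjusted p of 0.05. There 0 of the 8 were at an unadjusted p under 0.05, where 4.02% of all genes were, and 7 of 8 had a log2 fold change below 0, where 51.4% of all genes did. Of tested genes above 3308 bases, 58.0% did in I3-E3-SRS.

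**Figure D4:**
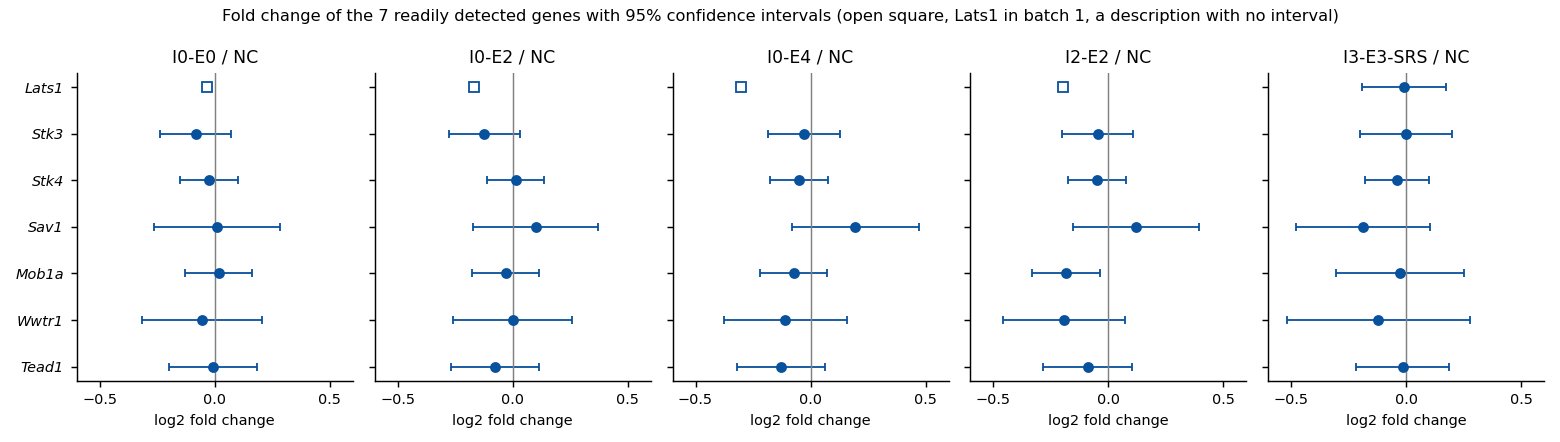
Log2 fold change of the 7 genes with more than 10 CPM in each exposed group against NC of its batch, from edgeR; bars are 95% confidence intervals, and open squares are Lats1 in batch 1 with no interval. The filled points lie between -0.19 and 0.19, and the interval of Mob1a in I2-E2 (-0.33 to -0.04) is the only filled one that stays on one side of 0.

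The upstream kinases lay close to NC. Stk4 (MST1) measured 85.3, 82.4 and 87.3 CPM in I0-E4 and 90.6, 85.5 and 88.2 CPM in NC of batch 1, a log2 fold change of -0.05 (SE 0.06). Its log2 fold change was between -0.05 and 0.01 in all 4 settings of batch 1, with intervals that reached from -0.18 to 0.14. Stk3 (MST2) was at -0.08 in I0-E0, -0.12 in I0-E2, -0.03 in I0-E4 and -0.05 in I2-E2 (SE 0.07 each), and its libraries overlapped NC in each setting. It measured 42.4, 44.6 and 40.2 CPM in I0-E2 and 42.5, 49.1 and 47.0 CPM in NC, so that NC replicate 1 lay among the I0-E2 libraries. In I3-E3-SRS Stk3 measured 38.7, 39.1 and 41.0 CPM, between the 42.3 and 37.4 CPM of the NC libraries, with a log2 fold change of 0.00 (SE 0.08). Stk4 measured 88.0, 88.7 and 83.3 CPM there, just below the 89.1 and 89.0 CPM of NC, with a log2 fold change of -0.04 (SE 0.06).

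Sav1, the scaffold that brings MST kinases to LATS, had the highest log2 fold change of the tested members in I0-E4 and in I2-E2, while Yap1 was higher in I0-E2 (0.11, against 0.10 for Sav1). It measured 20.1, 19.6 and 18.9 CPM in I0-E0 and 20.5, 21.1 and 20.8 CPM in I0-E2. It measured 19.8, 25.9 and 21.3 CPM in I0-E4 and 19.5, 20.8 and 17.9 CPM in NC, so that the groups overlapped (log2 fold change 0.19, SE 0.13). The slope over fluency was 0.20 for the whole range (SE 0.09, adjusted p = 0.497 from edgeR). Of the 8 members other than Lats1, 1 (Sav1) had an unadjusted p under 0.05 in this trend, where 9.70% of all 12182 genes did. In I2-E2 its libraries spread from 17.9 to 25.7 CPM, and without I2-E2 replicate 3 the log2 fold change was -0.07 where it had been 0.12. In I3-E3-SRS Sav1 measured 15.5, 17.9 and 16.6 CPM, below both NC libraries at 19.9 and 18.2 CPM (log2 fold change -0.19, SE 0.12, adjusted p = 1.00 from edgeR). Sav1 and Stk4 were thus 2 of 8 genes with all I3-E3-SRS libraries below NC, where 9.85% of all genes were. Part of the Sav1 sequence, an exon overlap of 1336 bases, is shared with Atl1 on the opposite strand, and the strandedness of the counting is not given, so reads of the shared end cannot be told apart.

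Mob1a, the cofactor that activates LATS kinases, was the 1 member other than Lats1 at an unadjusted p under 0.05 in I2-E2. It did not pass the adjusted test. It measured 109, 99.3 and 106 CPM in I2-E2 and 126, 117 and 114 CPM in NC, with no overlap (log2 fold change -0.18, SE 0.07, adjusted p = 0.631 from edgeR). Against I0-E2, with the same fluency, lower intensity and longer dwelling time, Mob1a was at -0.15 (SE 0.07, adjusted p = 0.945 from edgeR). I0-E2 measured 113, 114 and 123 CPM. It measured 114, 129 and 119 CPM in I0-E0 and 106, 111 and 122 CPM in I0-E4. In I0-E0, I0-E2 and I0-E4 its libraries overlapped NC, with log2 fold changes of 0.02, -0.03 and -0.07 (SE 0.07 each). In I3-E3-SRS it measured 125, 141 and 147 CPM, within the 122 and 158 CPM of NC (log2 fold change -0.03, SE 0.12).

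**Figure D5:**
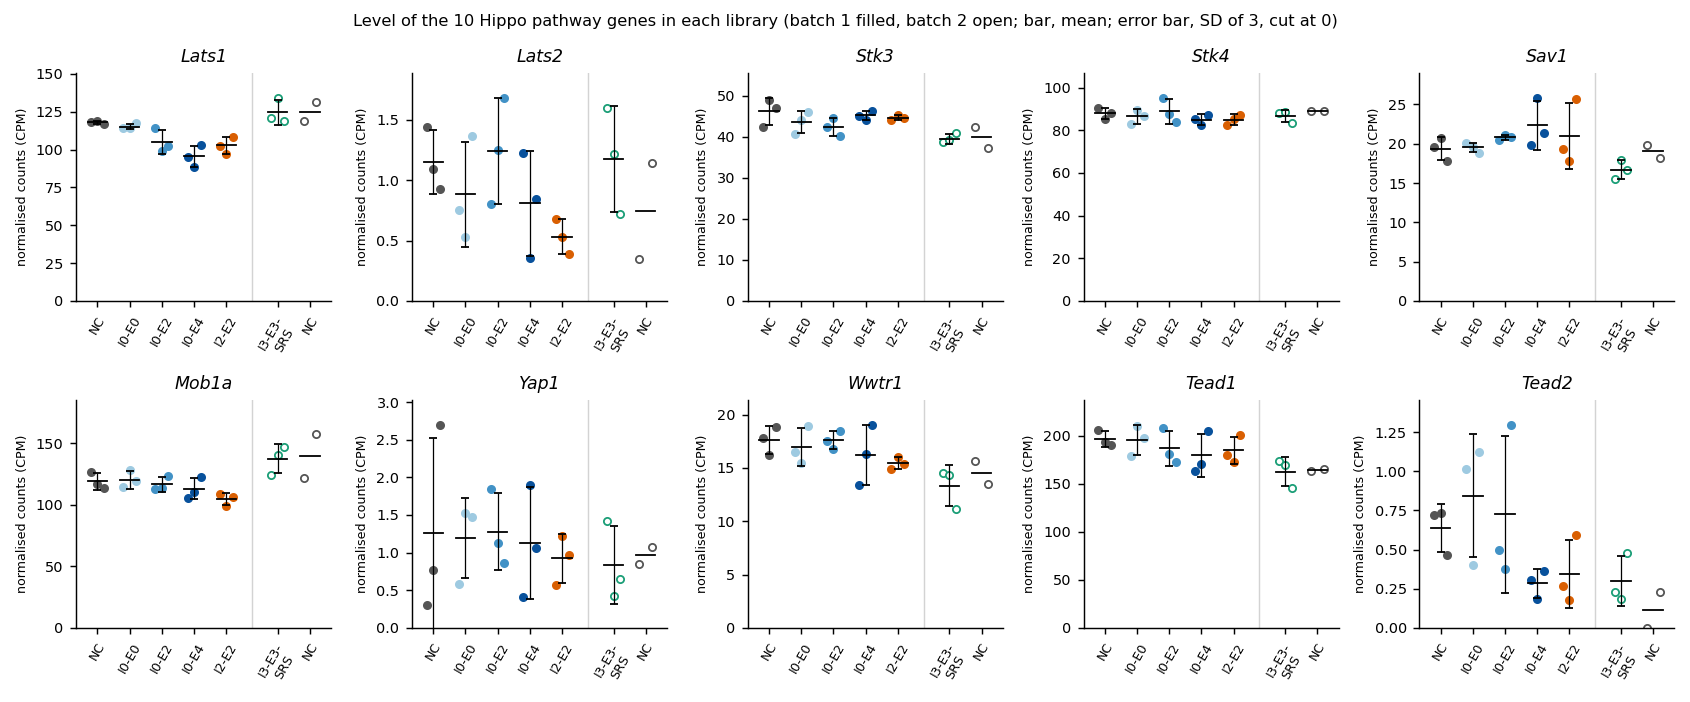
CPM of each of the 10 genes in every library, batch 1 as filled and batch 2 as open circles, with the group mean as a bar and the SD of 3 libraries as an error bar that is cut at 0. Lats1 in I0-E4 and I2-E2, and Mob1a, Wwtr1 and Lats2 in I2-E2, lie below all NC libraries of batch 1, whereas Yap1 and Tead2 stay below 3 CPM with wide spread.

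Wwtr1, which encodes TAZ, also had all of its I2-E2 libraries below NC. It measured 14.9, 16.0 and 15.4 CPM in I2-E2 and 17.8, 16.2 and 18.9 CPM in NC (log2 fold change -0.19, SE 0.13, adjusted p = 0.770 from edgeR). In I0-E4 it measured 13.3, 16.3 and 19.0 CPM and overlapped NC (log2 fold change -0.11, SE 0.13). In I3-E3-SRS it measured 14.5, 14.4 and 11.1 CPM and in NC of batch 2 15.6 and 13.5 CPM (log2 fold change -0.12, SE 0.17). All of its reads were assigned to coding transcripts, unlike those of Yap1.

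Lats2, the LATS paralogue and itself a YAP target, was close to the limit of detection. It had 5, 3 and 3 reads in I2-E2 and 12, 9 and 6 reads in NC of batch 1. The fitted log2 fold change was -1.14 (SE 0.55, adjusted p = 0.695 from edgeR), and its interval reached 0.02. On the log2(TPM + 1) scale it was -0.21. In I0-E4 Lats2 had 8, 2 and 7 reads, and in I3-E3-SRS 14, 13 and 9 reads, against 2 and 10 in NC of batch 2. The gene shares 41.8% of its words of 31 bases with other genes, mostly Gm49361 on the same strand, and its counts are uncertain.

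Lats2, Mob1a and Wwtr1 were 3 of the 8 genes other than Lats1 whose I2-E2 libraries all lay below NC, where 5.86% of all genes did. The same 3 had all I2-E2 libraries below those of I0-E2, where 4.99% of all genes did, and both contrasts share the I2-E2 libraries. In that contrast Lats2 was at -1.20 (SE 0.54, adjusted p = 0.945 from edgeR), and 2 of 8 had an unadjusted p under 0.05, where 5.25% of all genes did. In I0-E0, 0 of the 8 lay on one side of NC, where 9.04% of all genes did in either direction (4.38% lower), and there were 0 of 8 in I0-E2 (11.2% in either direction) and in I0-E4 (12.7%). In either direction the backgrounds were 12.1% in I2-E2, 10.4% between I2-E2 and I0-E2 and 18.6% in I3-E3-SRS.

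Tead1, the most abundant TEAD factor, measured 164, 170.2 and 205 CPM in I0-E4 and 206, 194 and 190 CPM in NC of batch 1. Replicate 3 of I0-E4 lay among the NC libraries (log2 fold change -0.13, SE 0.09, adjusted p = 0.711 from edgeR). Tead1 is longer than 98.4% of tested genes, and with the length trend removed its log2 fold change was -0.03. In the same way Mob1a was then at -0.03, Wwtr1 at -0.07 and Stk4 at 0.01 in I0-E4, and Sav1, which is near the middle of gene lengths, was at 0.21. In I2-E2 Tead1 measured 180.3, 173 and 201 CPM and overlapped NC (log2 fold change -0.09, SE 0.09). In I3-E3-SRS it measured 173 and 169 CPM in replicates 1 and 2 and was lower in replicate 3, so that the libraries lay on both sides of the 163 and 165 CPM of NC (log2 fold change -0.02, SE 0.09).

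Of the rest of the TEAD family and its cofactors, Vgll4, a TEAD repressor, was at 19.4 TPM and Tead3 at 1.23 TPM in NC of batch 1. Tead4, Vgll1, Vgll2 and Vgll3 had at most 1 read in any library. Of 22 target genes of YAP and TAZ, 11 reached 1 TPM in NC of batch 1 and 5 had fewer than 3 reads in every library. Ccn2 had 2 reads in 1 NC library of batch 1 and 0 in every other group, and Ankrd1 had at most 1 read in any library. Ccn1, a secreted matrix protein that is a common YAP readout and was named after its values were seen, was at 2.36 TPM in NC of batch 1 (10 to 38 reads). The most abundant of the 22 target genes were Asap1, Gadd45a and Fjx1 at 91.9, 23.3 and 21.6 TPM. Each of these also has other known inputs.

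Of the 22 target genes, Lats2 among them, 13 were tested in batch 1 and 0 passed an adjusted p of 0.05 in any setting. Their median log2 fold change was -0.25 in I0-E0, -0.10 in I0-E2, -0.25 in I0-E4 and -0.16 in I2-E2, against 0.00 over all genes in each. Of the 13, 10 lay below NC in I0-E0, where 48.6% of all genes did, and 8 in I0-E2 (49.8%). In I0-E4 11 did (49.3%), as did 11 in I2-E2 (48.8%). These 4 comparisons share the same NC libraries. In I3-E3-SRS 7 of 12 lay below NC, where 51.4% of all genes did. Axl, a receptor tyrosine kinase, had all exposed libraries at or above NC in reads in all 4 settings of batch 1. It had 5 to 12 reads in I0-E0, 5 to 10 in I0-E2, 4 to 13 in I0-E4 and 3 to 11 in I2-E2, against 2 to 3 in NC, with log2 fold changes of 1.69, 1.57, 1.75 and 1.55 (adjusted p = 0.612 to 1.00 from edgeR). All 4 comparisons share the same NC libraries with 7 reads in total. Amotl2, a target and also an inhibitor of YAP, had all I0-E0 libraries below NC (2.59 CPM, against 3.88 CPM in NC, log2 fold change -0.58, adjusted p = 1.00 from edgeR).

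Among the regulators above the cassette and the phosphatase that opposes it, 0 genes passed the adjusted test. Of 37 upstream regulators 29 were tested, led by Map4k4, Wwc2 and Mark3 at 165, 91.9 and 73.2 TPM, and 1 of the 37, Rassf6, had 0 reads in all libraries. In I0-E4 17 of the 29 lay below NC, where 49.3% of all genes did, with a median log2 fold change of 0.00 over the list and over all genes. All I0-E4 libraries lay below NC for 3 of the 29 and above NC for 1. Over all genes 6.03% lay below in this way and 12.7% in either direction. Stk38, the NDR1 kinase related to LATS, measured 51.6 CPM in I0-E4 and 59.5 CPM in NC, without overlap (log2 fold change -0.21, SE 0.08, adjusted p = 0.612 from edgeR). The STRIPAK complex, which dephosphorylates MST kinases, had all 13 genes tested, led by Ppp2cb, Ppp2r1a and Ppp2ca at 228, 178 and 92.5 TPM, and its median log2 fold change was 0.01 in I0-E4 and 0.04 in I2-E2. The 6 genes of YAP and TAZ degradation, led by Skp1a, Csnk1d and Csnk1e at 359, 160 and 137 TPM, had medians of 0.00 and 0.03. The summed level of the 13 STRIPAK genes was 1580 to 1650 CPM in I0-E4 and 1570 to 1650 CPM in I2-E2. Both lay above the 1520 to 1560 CPM of NC in batch 1. It was 1540 to 1590 CPM in I0-E0 and 1550 to 1590 CPM in I0-E2, which overlapped NC. Taken singly, 7 of the 13 genes lay above NC in I0-E4 and 6 below, and 9 above in I2-E2 and 4 below. All I0-E4 libraries lay on one side of NC for 0 of the 13, where 12.7% of all genes did. In I2-E2 this held for 1 gene, above NC, where 12.1% of all genes did. A share over all genes was not computed for summed levels. Of these lists 0 genes passed an adjusted p of 0.05 in any comparison.

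The summed level of the 9 mesenchymal markers was 2210 to 2280 CPM in I0-E4 and 2090 to 2140 CPM in NC of batch 1, without overlap. It was 2180 to 2250 CPM in I0-E2, also above NC, and 2110 to 2200 CPM in I0-E0 and 2130 to 2190 CPM in I2-E2, which overlapped NC. Most of this was Vim, an intermediate filament gene at 1840 CPM in I0-E4 and 1680 CPM in NC, with a log2 fold change of 0.13 (SE 0.05, adjusted p = 0.612 from edgeR). Fn1, which encodes fibronectin, was at 369 CPM in I0-E4 and 399 CPM in NC. In batch 2 the list summed to 2260 to 2370 CPM in I3-E3-SRS and 2350 to 2360 CPM in NC. The other marker lists overlapped between I0-E4 and NC. The summed level of the 6 macrophage markers was 0.365 to 1.69 CPM in I0-E4 and 0.842 to 1.55 CPM in NC of batch 1, and that of the 7 fibroblast markers was 4.36 to 7.39 CPM in I0-E4 and 3.86 to 6.34 CPM in NC. The 4 endothelial markers summed to 7.89 to 8.52 CPM in I0-E4 and 6.22 to 8.70 CPM in NC, and the 5 epithelial markers to 0.365 to 1.38 CPM in I0-E4 and 0.622 to 1.45 CPM in NC, with Krt18 at 0 reads in all libraries. The 13 tested sympathoadrenal genes had a median log2 fold change of 0.04 in I0-E4, with 8 above NC and 5 below. All I0-E4 libraries lay above NC for 2 of them and below NC for 2, where 12.7% of all genes lay on one side. Isl1, a neuronal transcription factor among the 13, was at -0.29 (adjusted p = 0.612 from edgeR). In batch 2 the macrophage markers summed to 2.91 to 3.19 CPM in I3-E3-SRS and 3.42 to 6.96 CPM in NC, with Csf1r at -1.10 (adjusted p = 1.00 from edgeR). The endothelial markers summed to 4.0 to 5.62 CPM in I3-E3-SRS and 7.46 to 8.03 CPM in NC, with Pecam1 at -0.66. Each of these lists had 1 gene tested in batch 2, at a low level. With 3 libraries against 2, 9.85% of all genes lay below NC without overlap, and 18.6% lay on one side. A share over all genes was not computed for summed levels. The part of all these markers in the values of the members was not tested.

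The genes whose levels followed Lats1 most closely over the 15 libraries of batch 1 were Tnrc6b, Ncoa7, Hipk2, Abl2 and Mat2a, at Pearson correlations of log2 CPM of 0.912, 0.899, 0.889, 0.888 and 0.881 among 9078 genes with a mean of 10 CPM or more. The points share the libraries, their depth and their length trend, and these are descriptions across libraries of 5 groups. Tnrc6b, which encodes a protein of miRNA-guided silencing, measured 66.3 CPM in I0-E4 and 85.3 CPM in NC, and Hipk2, a stress-responsive kinase, measured 45.5 CPM in I0-E4 and 59.8 CPM in NC. Abl2, a tyrosine kinase, measured 90.7 CPM in I0-E4 and 105 CPM in NC, and Mat2a, which makes S-adenosylmethionine, had a log2 fold change of -0.10 in I0-E4. Effective lengths were 17114 bases for Tnrc6b, 7020 for Abl2 and 4989 for Hipk2, but 3661 for Ncoa7 and 2240 for Mat2a. Among the members the correlation with Lats1 was 0.725 for Tead1, 0.508 for Stk4, 0.505 for Mob1a, 0.404 for Wwtr1, 0.0704 for Stk3 and -0.375 for Sav1.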

How the data were processed

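The authors quantified each library with Salmon (NEBNext Ultra II RNA libraries) and deposited an estimated count and a TPM value for every transcript. TPM values were deposited as scaled by effective length, with no normalisation between libraries. For the Salmon version, transcript release, genome build, read layout and strandedness, the entry is not given in the sources used here. Transcripts were matched to GENCODE vM21 (GRCm38; 98.6% of identifiers), and unmatched ones, 0.664% to 0.748% of a library's counts, were left out. Estimated counts were summed per gene and rounded. Genes were filtered with filterByExpr at a minimum count of 10, and edgeR's quasi-likelihood test was fitted per batch on TMM library sizes with Benjamini-Hochberg adjustment over all genes and a threshold of 0.05. The study's methods name limma, which is an alternative here, because counts were deposited. CPM values use TMM sizes. Libraries ranged from 5473588 to 12698770 counts, and the shallower ones have more counting error. The spread between libraries of a group beyond counting error was 8.26% in batch 1 and 11.5% in batch 2 (common coefficient of variation from edgeR). The test was checked on simulated counts with the same spread for every gene and no length trend, with changes only in genes above 10 CPM. For I0-E4 against NC it recovered 91% of 1.5-fold and 100% of 2-fold changes, with 12 false calls. For I3-E3-SRS against NC of batch 2 it recovered 50% and 97%, with 6 false calls. Smaller changes, such as most of those given above, were not simulated.

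The members and gene lists were chosen with earlier results of these data known. All 10 members are named. List genes are named where the libraries of a setting were all on 1 side of NC with an unadjusted p under 0.05, where they were among the 3 highest in TPM, or where they had nearly 0 reads, and the 5 genes most correlated with Lats1 were taken. Only the end of exon 2 of Yap1 is shown as sequence, from GENCODE vM21 transcripts. Alternatives were DESeq2, limma-voom, limma-trend on log2(TPM + 1), library totals, no filter, removal of the length trend, the compared groups alone, the replicate block, other codings of fluency and leaving out each library. Replicate numbers were not used as pairs in the main fits. Deviations of equal numbers correlated at -0.429 to 0.435 over 30 pairs in batch 1, above 0.1 in 4. Unequal numbers were not compared, so these values do not settle whether the numbers pair the libraries. Software was DESeq2 1.42.0, edgeR 4.0.16 and limma 3.58.1 under R 4.3.3, and matplotlib 3.10.9, scipy 1.17.1, pandas 2.3.3 and numpy 2.4.6 under Python 3.11.15.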

Additional observations from a re-analysis of the deposited data

Results flagged for a closer look

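Lats1-203, a transcript outside the comparisons of gene levels, held 8.88% of Lats1 TPM in I0-E2 replicate 1, 24.3% in I0-E2 replicate 2 and 21.6% in I0-E4 replicate 3, where its highest share in any NC library was 0.523%. These 3 libraries were picked out because they lay above all control libraries and above a minimum share of 5%.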

How the results depend on the processing

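The number of members past an adjusted p of 0.05, leaving out Lats1 in batch 1, was 0 in all 103 counts under alternatives, the replicate block (0 in each of 7 comparisons) and the leave-one-out fits (0 to 0) included. With the replicate block the log2 fold change of Lats1 was 0.02 in I3-E3-SRS and it changed no call of a member, but 6 genes of the series passed in I3-E3-SRS where 0 did without it. Of 905 member fold changes under alternatives, 87 had the other sign and 28 moved by over 1 SD of the replicates. The order of levels changed with the libraries used, since 4 neighbours were apart without NC replicate 1 of batch 2, an alternative chosen after seeing the data, and 1 with it. By CPM, Tead1 ranked above Mob1a and Lats1 above Stk4. Without NC replicate 3, the log2 fold change of Yap1 was 1.16 in I0-E0, 0.99 in I0-E4 and 0.71 in I2-E2, where it had been 0.07, -0.09 and -0.38. On log2(TPM + 1), the 7 members above 10 CPM were 0.25 to 0.50 higher in I3-E3-SRS than in NC, whose replicate 1 holds 32.5% of its TPM in short transcripts.

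Over all genes, where 0 passed by edgeR, no filter gave 110, 46, 172, 160, 194, 125 and 2 in the comparisons of I0-E0, of I0-E2, of I0-E4, of I2-E2, of I3-E3-SRS, of I2-E2 with I0-E2, and in the trend. DESeq2 gave 1, 0, 1, 0, 15, 4 and 2 in the same order. Leaving out each library gave 0 to 1, 0 to 1, 0 to 1, 0 to 2, 0 to 671, 0 and 0 to 35, the 671 without NC replicate 2 of batch 2 and the 35 without I0-E4 replicate 3. The compared groups alone gave 2 in I2-E2 against I0-E2, and limma-trend gave 1 in I3-E3-SRS. Low counts limit Lats2, Yap1 and Tead2.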
